A study of Mus musculus with 47 samples.

Results

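The genes described here encode 6 Toll-like receptors (*Tlr1*, *Tlr2*, *Tlr3*, *Tlr4*, *Tlr7* and *Tlr9*), the adaptor *Myd88* and 3 proteins that work beside such receptors (the co-receptor *Cd14*, the chaperone *Unc93b1* and *Ly86*, the partner of the related protein CD180). They are 10 of the 55745 genes in the deposited tables, were chosen by symbol, and were matched to the Ensembl identifiers of both tables through GENCODE M21. RNA came from the microdissected cortex of 47 male C57BL/6J mice, 1 library per mouse, all wild type. At 2.5 months of age, 23 mice were given control chow and 24 mice were given chow with 1200 ppm PLX5622, an inhibitor of CSF1R, the receptor on which microglia depend for survival, for 10 days. Both diets were harvested at Zeitgeber times (ZT) 2, 6, 10, 14, 18 and 22, with 4 mice in each group and 3 in the ZT14 group on control chow. The question behind the design was how the loss of microglia alters cortical gene expression over the day. PLX5622 also reaches other cells that use CSF1R, such as border macrophages, and the tissue was a whole-cortex homogenate of perfused brains, so a transcript level sums over all cell types.

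Toll-like receptors recognise conserved microbial molecules. Those on the cell surface, including TLR1, TLR2 and TLR4, bind lipoproteins and lipopolysaccharide, whereas TLR3, TLR7 and TLR9 sit in endosomes and bind nucleic acids. Most of these receptors signal through the adaptor MYD88 to kinases of the IRAK family and on to NF-kB, while TLR3 uses the adaptor TRIF. In the brain, microglia are the main cells known to carry this family, and astrocytes, neurons and endothelial cells are known to express some of its members.

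Depth ran from 16597987 to 27626161 gene counts per library (medians 18314954 on control chow and 21476967.5 on PLX5622). The summed level of 8 microglial markers was 225 to 371 TPM (a level scaled for transcript length and depth) in control libraries and 17.9 to 61.8 TPM in PLX5622 libraries. Of these markers, *P2ry12*, *Tmem119*, *Cx3cr1*, *Csf1r*, *Siglech* and *Fcrls* kept 7.37% to 10.5% of their control mean and *Sall1* kept 66.1%, with none at 0 in all libraries. These 7, listed with earlier results of these data known, were lower in PLX5622 mice (limma on log2(TPM + 1), adjusted p from 1.02e-26 to 3.89e-08). Border macrophage markers moved with them, from a summed 7.82 to 20.2 TPM in control libraries to 0.385 to 2.94 TPM in PLX5622 libraries. The summed markers of astrocytes, neurons, endothelial cells and oligodendrocytes had overlapping ranges in both diets, as did those of monocytes and neutrophils and of lymphocytes, and the choroid plexus markers had a median of 494 TPM in control and 802 TPM in PLX5622 libraries. Such sums rest on their most abundant markers and can hide single ones. *Gfap* was at 146% of its control mean, and the other astrocyte markers at 91.8% to 115%. *Ccr2*, low at 0.177 TPM in control libraries, was at 28.4%, and *S100a8* and *S100a9* at 112% and 101%. The part of the individual cell types in the results below was not tested, and in bulk tissue fewer cells of a type cannot be told apart from less RNA per cell.

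In the control cortex, *Ly86* and *Unc93b1* stood above all 6 receptors in mean level. *Ly86* had the highest mean level, 19.6 ± 2.29 TPM (SD, n = 23), followed by *Unc93b1* at 12.5 ± 2.17 TPM. *Tlr3* was the most abundant receptor at 7.78 ± 2.28 TPM. *Myd88* followed at 3.68 ± 0.754 TPM and *Cd14* at 2.91 ± 0.745 TPM. The remaining receptors were low. Their mean TPM was 1.33 for *Tlr7* (median 0.931), 0.634 for *Tlr9*, 0.627 for *Tlr4*, 0.582 for *Tlr2* and 0.390 for *Tlr1*. Neighbours in this order overlapped in range in every case. *Ly86* exceeded *Unc93b1* in all 23 libraries, whereas *Tlr9* exceeded *Tlr4* in 13 of 23 and *Tlr4* exceeded *Tlr2* in 11 of 23, so *Tlr9*, *Tlr4* and *Tlr2* could not be placed in order.

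In PLX5622 mice the order was different. *Tlr3* (7.92 ± 1.70 TPM, n = 24) and *Myd88* (3.67 ± 1.39 TPM) came first, followed by *Unc93b1* (3.12 ± 1.24 TPM) and *Ly86* (2.47 ± 1.52 TPM). *Tlr3* was the higher of the first pair in 22 of 24 libraries. *Myd88* was above *Unc93b1* in only 15 of 24, so *Myd88* and *Unc93b1* could not be placed in order. Without the 5 libraries described below, whose *Myd88* TPM was high for their counts, the means were 3.04 and 3.10 TPM (n = 19). These 19 still hold mouse 3 at ZT14, with 6.29 TPM of *Unc93b1* from 64 counts. Libraries were thus left out for *Myd88* only, and these means do not settle the order. *Unc93b1* was above *Ly86* in 16 of 24. *Cd14* (0.447 TPM), *Tlr4* (0.430 TPM), *Tlr9* (0.286 TPM) and *Tlr2* (0.261 TPM) lay close together, and *Tlr7* (0.161 TPM) and *Tlr1* (0.0597 TPM) were lowest. *Cd14* exceeded *Tlr4* in only 10 of 24 libraries.

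The genes had been listed with their diet difference in these mice already known, so that difference is described below without a test. On CPM (counts scaled to the same total in every library), every PLX5622 library lay below every control library for 4 of the 10 genes (*Tlr7*, *Cd14*, *Ly86* and *Unc93b1*), and this held for 0.964% of the 16293 genes kept in the count table. The other 6 overlapped between diets. Of the 10 genes, 5 averaged 1 TPM or more (*Tlr3*, *Myd88*, *Cd14*, *Ly86* and *Unc93b1*), as did 14580 genes in all, and *Cd14*, with 0.447 TPM in PLX5622 libraries, did so only through the control libraries. On TPM, the separation held for 3 of these 5 (*Cd14*, *Ly86* and *Unc93b1*) and for 0.583% of the 14580, of which 3.45% were called for diet in either direction. It also held for *Tlr7*, which is not among the 14580. The count filter kept 9 of the 10 genes (all but *Tlr1*), 4 of them (*Tlr2*, *Tlr7*, *Cd14* and *Ly86*) only through the control libraries. The plot of CPM values shows the 10 genes side by side.

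**Figure D1:**
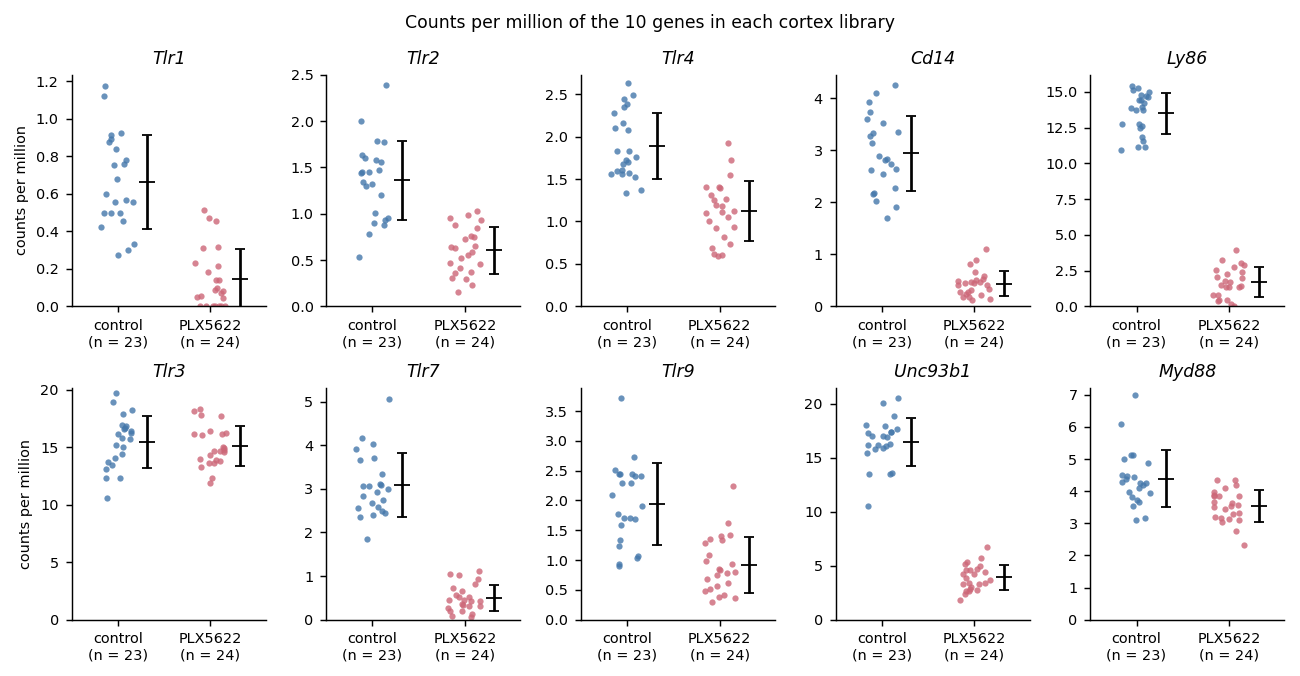
CPM (y axis) of the 10 genes in each cortex library, with control libraries (n = 23) in blue and PLX5622 libraries (n = 24) in red; black bars are the mean ± SD, cut at 0 for *Tlr1*. The 2 diets are fully apart for *Cd14*, *Ly86*, *Tlr7* and *Unc93b1* and overlap for the other 6 genes.

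The upstream sequence is shown for *Myd88* and *Tlr9*. The PLX5622 mean of *Myd88* was 99.9% of control in TPM and 80.7% in CPM. That of *Tlr9* was 45.1% in TPM and 47.2% in CPM. RefSeq start sites (GRCm38.p6) were found for 6 of the 10 genes, 7 starts in all, and the 250 bases before a start are printed 5′ to 3′ on the strand of the gene, with capitals for a motif match. By GENCODE M21, exons of the gene itself cover 0 bases of the *Tlr9* window, 23 of the *Myd88* window and 5 of the window at the first of 2 *Tlr1* starts. The *Myd88* window lies within the gene bounds that GENCODE gives, so it is upstream of the RefSeq start only. Exons cover 137 to 211 bases of the other 4 windows (*Tlr2*, *Tlr3*, *Ly86* and the second *Tlr1* start), which are not described.
*Myd88*, chr9:119340019-119340268, minus strand: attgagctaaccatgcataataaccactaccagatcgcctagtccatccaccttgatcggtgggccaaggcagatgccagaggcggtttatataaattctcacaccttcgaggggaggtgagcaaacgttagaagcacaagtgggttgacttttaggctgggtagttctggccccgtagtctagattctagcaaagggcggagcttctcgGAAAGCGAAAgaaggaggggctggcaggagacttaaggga
*Tlr9*, chr9:106222348-106222597, plus strand: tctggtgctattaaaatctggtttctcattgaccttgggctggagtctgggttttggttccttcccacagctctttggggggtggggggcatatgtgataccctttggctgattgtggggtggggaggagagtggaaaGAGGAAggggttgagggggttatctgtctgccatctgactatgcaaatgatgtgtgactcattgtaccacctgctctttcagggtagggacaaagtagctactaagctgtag
Both strands were searched for GAGGAA (the core bound by PU.1, a macrophage lineage factor), GGAA and GAAA with 2 bases between them (the composite element of ETS and IRF factors), GAAA and GAAA with 2 bases between them (the interferon response core) and GGGA and TTCC with 2 bases between them (a loose NF-kB pattern, searched after a stricter one had given no match). The composite and interferon patterns can overlap. *Myd88* holds 1 match to the interferon response core, starting 40 bases before its start site, and this core occurs in 2.98% of 32851 promoters of the same length. *Tlr9* holds 1 match to the PU.1 core, 112 bases before the start, as does the window of the first *Tlr1* start, 23 bases before it, and this core occurs in 23.2% of promoters. The composite element, which occurs in 2.30% of promoters, and the NF-kB pattern, which occurs in 1.21%, are in none of these 3 windows, which says only that these letters are not there. The *Tlr9* window holds 0 CpG dinucleotides and the *Myd88* window 9, against a median of 6 over all promoters.

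Among the surface receptors, *Cd14* and *Ly86*, the genes *Ly86* (12.5%) and *Cd14* (14.9%) had the lowest remaining share of the control mean in CPM and *Tlr4* the highest. *Ly86*, also called MD-1, binds the receptor-like protein CD180. It lies on chromosome 13 (GRCm38, 37345208 to 37419036, plus strand). Its control libraries ranged from 15.1 to 23.97 TPM with a median of 20.4, and its PLX5622 libraries from 0 to 5.34 TPM with a median of 2.49. The PLX5622 mean was 12.6% of control, and the log2 difference was -2.73 ± 0.16 (SE) on TPM and -3.00 ± 0.18 on counts. Counts ran from 0 to 89 per PLX5622 library. The library at 0, mouse 2 at ZT2, allows up to 3 counts of *Ly86* from counting error alone.

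*Cd14* hands lipopolysaccharide to TLR4. It ranged from 1.68 to 4.40 TPM in control libraries, with a median of 2.897, and from 0.0989 to 1.10 TPM in PLX5622 libraries, with a median of 0.389. The 2 diets did not overlap, and the log2 difference was -1.43 ± 0.079 on the log2(TPM + 1) scale, which understates low genes, and -2.74 ± 0.16 on counts.

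*Tlr1* (chromosome 5, 64924679 to 64933563, minus strand) pairs with TLR2 to bind bacterial lipopeptides and had the fewest reads of the 10 genes. Its counts had a median of 11 in control libraries, with a highest of 23, and a median of 2 in PLX5622 libraries, with a highest of 11 and 7 of 24 libraries at 0. In CPM it averaged 0.664 ± 0.250 in control and 0.144 ± 0.161 in PLX5622 libraries, and 19 of 24 PLX5622 libraries lay below every control library. *Tlr1* did not pass the count filter, and without it the log2 difference was -2.17 ± 0.30.

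*Tlr2* (chromosome 3, 83836272 to 83841767, minus strand), the partner of TLR1 and TLR6, retained a larger share. It ranged from 0.536 to 2.39 CPM in control libraries, with a median of 1.44, and from 0.161 to 1.03 in PLX5622 libraries, with a median of 0.611, so that 10 of 24 PLX5622 libraries lay below every control library. The log2 difference on counts was -1.17 ± 0.16. At ZT18 its PLX5622 mean was 82.2% of control in CPM and at ZT22 it was 34.9%.

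*Tlr4* (chromosome 4, 66827584 to 66930284, plus strand), the receptor for lipopolysaccharide, had a log2 difference of -0.77 ± 0.11 on counts. Its control libraries ran from 1.33 to 2.63 CPM, with a median of 1.76, and its PLX5622 libraries from 0.595 to 1.92, with a median of 1.12. Of the PLX5622 libraries, 18 of 24 were below every control library. The remaining share of its mean was 59.2% in CPM and 68.6% in TPM. The highest PLX5622 library in TPM, at 0.963, was above the highest control library, at 0.908. In CPM that PLX5622 library, mouse 1 at ZT14, was at 1.41, within the control range.

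Among the endosomal receptors the remaining share ran from 16.1% for *Tlr7* to 97.5% for *Tlr3* in CPM, and among the surface receptors from 21.7% for *Tlr1* to 59.2% for *Tlr4*. *Tlr7* (chromosome X, 167304929 to 167330558, minus strand) recognises single-stranded RNA. Its control libraries ranged from 1.85 to 5.07 CPM, with a median of 3.00, and its PLX5622 libraries from 0.0595 to 1.11, with a median of 0.432. The ranges were apart, and the log2 difference on counts was -2.61 ± 0.17.

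*Tlr9* (chromosome 9, 106222598 to 106226883, plus strand) recognises unmethylated CpG DNA. It ranged from 0.904 to 3.72 CPM in control libraries, with a median of 1.91, and from 0.298 to 2.25 in PLX5622 libraries, with a median of 0.816. The ranges overlapped, with 14 of 24 PLX5622 libraries below every control library, and the log2 difference on counts was -1.09 ± 0.16.

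*Tlr3* (chromosome 8, 45395665 to 45411080, minus strand), which recognises long RNA duplexes of viruses, showed no such gap. It ranged from 4.17 to 14.01 TPM in control libraries, with a median of 7.60, and from 5.18 to 10.96 TPM in PLX5622 libraries, with a median of 7.74. No PLX5622 library was below every control library in CPM, where the means were 15.5 ± 2.26 and 15.1 ± 1.76. The log2 difference was 0.05 ± 0.096 on TPM and -0.05 ± 0.058 on counts, so its sign differed between tables and its size was within the standard error. An antisense gene, *Gm45542*, shares 381 bases (7.32%) of the *Tlr3* exons and had 0 counts in all libraries, with means of 0.0393 TPM in control and 0.0718 TPM in PLX5622 libraries in the other table.

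*Unc93b1* (chromosome 19, 3935186 to 3949340, plus strand) encodes the chaperone that carries the nucleic acid receptors, TLR3 included, from the endoplasmic reticulum to endosomes. Its highest PLX5622 library in TPM, mouse 3 at ZT14, had 64 counts, against a PLX5622 median of 82 counts. In TPM *Unc93b1* ranged from 8.93 to 17.0 in control libraries, with a median of 12.4. In PLX5622 libraries it ranged from 1.53 to 6.29 TPM, with a median of 2.85. The ranges were apart, the remaining share was 24.9%, and the log2 difference was -1.75 ± 0.091 on TPM and -2.08 ± 0.086 on counts. *Unc93b1* and *Tlr3* thus parted in PLX5622 mice: the chaperone was above the receptor in 22 of 23 control libraries, while its PLX5622 mean was below that of *Tlr3*.

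*Myd88* (chromosome 9, 119335934 to 119341411, minus strand) encodes the adaptor shared by all of these receptors but TLR3. In TPM it ranged from 2.61 to 5.81 in control libraries, with a median of 3.75, and from 1.97 to 7.86 in PLX5622 libraries, with a median of 3.15. In TPM the PLX5622 mean was 99.9% of the control mean, with a log2 difference of -0.03 ± 0.086. In CPM the PLX5622 mean was 80.7% of control (3.55 ± 0.497 against 4.39 ± 0.879), the log2 difference on counts was -0.32 ± 0.076, and 3 of 24 PLX5622 libraries lay below every control library. The 2 tables therefore gave different diet differences for *Myd88*.

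For *Myd88* the tables differed most in 5 PLX5622 libraries. At ZT6, the 4 PLX5622 mice had 5.39, 2.902, 7.86 and 5.43 TPM of *Myd88* from 84, 86, 85 and 58 counts. At ZT10, they had 3.44, 3.58, 5.92 and 5.76 TPM from 71, 73, 55 and 61 counts. Thus mice 1, 3 and 4 at ZT6 and mice 3 and 4 at ZT10 were high in TPM without being high in counts. The ratio of TPM to CPM was 1.505 to 2.08 in these 5 libraries and at most 1.08 in the other 42. Without the 5, which were picked by this ratio after the values were seen, the log2 difference on TPM was -0.21 ± 0.064. The exons of *Myd88* share 290 bases (11.3%) with *Acaa1a* on the opposite strand, a peroxisomal enzyme gene with a mean of 51.4 TPM in control and 49.3 TPM in PLX5622 mice, and use of strand in the counting is not given in the sources used here. The part of this overlap, or of the way the 2 tables assign reads to transcripts, was not tested.

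**Figure D2:**
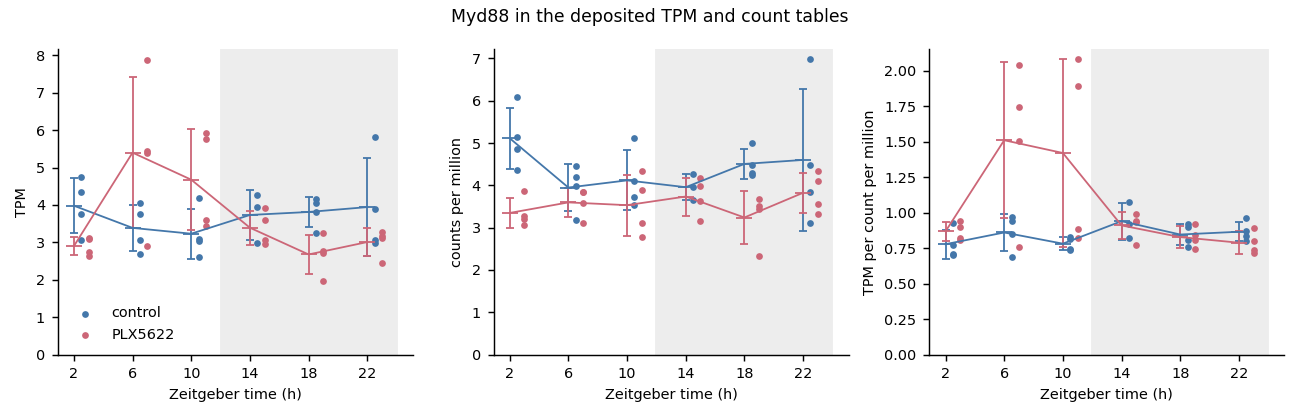
*Myd88* by Zeitgeber time (x axis, h; grey marks the dark phase) in TPM (left), in CPM (middle) and as the ratio of both (right); points are libraries, set beside their harvest time, lines and bars are group means ± SD (n = 4 mice per point, 3 for control at ZT14). In PLX5622 mice 5 libraries at ZT6 and ZT10 have a ratio of 1.505 to 2.08, all others are at or below 1.08, and the higher PLX5622 means at ZT6 and ZT10 in TPM are not seen in CPM.

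Over the day, no member passed the threshold for a 24-h rhythm in control mice. The limma fit on TPM called 0 of 5 members (lowest adjusted p = 0.627, for *Unc93b1*, and 0 with an unadjusted p under 0.05), against 0.604% of all genes tested (11.9% unadjusted). The edgeR fit on counts called 0 of 9, against 3.62% of genes (19.6% unadjusted). Its lowest adjusted p was 0.236, for *Tlr9*, the 1 member with an unadjusted p under 0.05. JTK_CYCLE, run on TPM, called 0 of 5. *Tlr9* had its highest control mean at ZT6, 2.85 ± 0.589 CPM (n = 4), and its lowest at ZT18, 1.36 ± 0.436. *Tlr7* was highest at ZT14, where its 3 control libraries had 3.91, 4.15 and 5.07 CPM, and had means of 2.59 to 3.14 at the other times. *Unc93b1* had control means from 9.85 ± 1.15 TPM at ZT18 to 14.025 ± 2.09 TPM at ZT2, and *Ly86* from 16.8 ± 1.17 TPM at ZT18 to 21.7 ± 1.97 TPM at ZT14.

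In PLX5622 mice, *Myd88* was the 1 of 5 members called on TPM (limma, amplitude 0.35 on the log2 scale, peak at ZT 8.11, adjusted p = 0.0138), against 1.45% of genes tested (13.2% unadjusted). Since a time by diet value of *Myd88* in these mice had been seen before the gene was listed, this call is not independent evidence. On counts the amplitude was 0.0092 (edgeR, adjusted p = 0.997). There edgeR called 0 of 9 members with 0 at an unadjusted p under 0.05, against 3.00% of genes (18.1% unadjusted), and DESeq2 called none. JTK_CYCLE, run on TPM, called 0 of 5, with *Myd88* at an unadjusted p of 0.0186 and an adjusted p of 0.303. Without the 5 libraries with a high ratio, the amplitude on TPM was 0.11. These 5 hold the highest *Myd88* TPM of the PLX5622 mice and lie at ZT6 and ZT10, around the fitted peak. Only mouse 2 at ZT6 and mice 1 and 2 at ZT10 remain. Leaving the 5 out thus takes away the peak, and cannot decide whether *Myd88* has a rhythm. The other 4 members tested on TPM had adjusted p-values of 0.700 to 0.912 in PLX5622 mice.

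The remaining share was also followed over the harvest times. In CPM *Ly86* retained 6.62% (ZT2) to 19.8% (ZT18) of the control mean, *Cd14* 9.10% (ZT2) to 21.1% (ZT6), *Tlr7* 10.6% (ZT14) to 22.99% (ZT6) and *Unc93b1* 18.3% (ZT14) to 31.2% (ZT18). *Tlr3* lay between 86.2% (ZT10) and 112% (ZT14), and *Myd88* between 65.5% (ZT2) and 94.4% (ZT14). The interaction of diet and time was called for 0 of 5 members by limma on TPM, where *Myd88* was the 1 member with an unadjusted p under 0.05, and for 0 of 9 by edgeR, with 0 at an unadjusted p under 0.05. It was called for 0.00% of all genes in both, with 4.59% and 5.62% at an unadjusted p under 0.05.

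**Figure D3:**
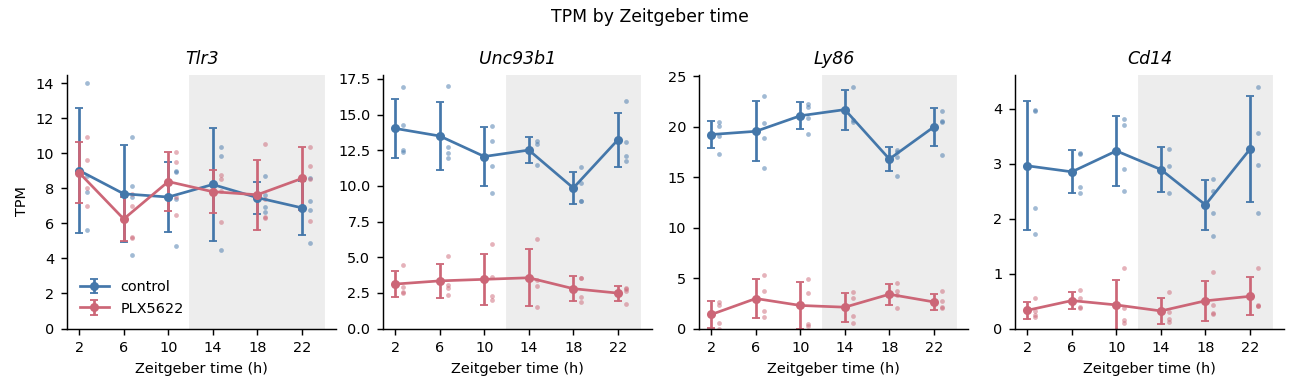
TPM of *Tlr3*, *Unc93b1*, *Ly86* and *Cd14* by Zeitgeber time (x axis, h; grey marks the dark phase), with group means ± SD as lines (n = 4 mice, 3 for control at ZT14) and single libraries as small points set to the right. The PLX5622 means of *Unc93b1*, *Ly86* and *Cd14* lie below the control means at all 6 times, while those of *Tlr3* cross.

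The PLX5622 mice differed in how much microglial RNA remained, which gave a comparison within 1 diet, apart from the diet difference known when the genes were listed. The members and markers were still listed with earlier results of these data known. The mean log2(TPM + 1) of the 8 microglial markers was 4.78 ± 0.146 in control libraries and 2.05 ± 0.478 in PLX5622 libraries, with a range of 1.19 to 2.73 among the 24. *Ly86* followed this level, with a slope of 1.49 ± 0.10 log2 units per unit of marker level (limma, adjusted p = 1.82e-09), and it was the 1 of 5 members called, against 0.247% of genes tested. On counts its slope was 2.37 ± 0.26 (edgeR, adjusted p = 1.33e-06). *Unc93b1* had a slope of 0.46 ± 0.15 on TPM, which missed the threshold (adjusted p = 0.811), and of 0.70 ± 0.14 on counts, which passed it (edgeR, adjusted p = 0.0101). On counts, 2 of 9 members were called (*Ly86* and *Unc93b1*), against 0.313% of genes. Of the 9, *Tlr2*, *Tlr7*, *Cd14* and *Ly86* passed the count filter only through the control libraries, which are not in this fit. The same held on TPM for *Cd14*, with a mean of 0.447 TPM in PLX5622 libraries. *Cd14* had a slope of 0.27 ± 0.11 on TPM (adjusted p = 1) and of 1.01 ± 0.33 on counts (edgeR, adjusted p = 0.744), and neither passed. On counts *Tlr7* (1.05 ± 0.37, adjusted p = 0.905), *Tlr2* (0.59 ± 0.28, adjusted p = 0.9997) and *Tlr4* (0.36 ± 0.21, adjusted p = 0.9997) also had positive slopes that did not pass in edgeR. *Tlr3* had slopes within their standard error (0.05 ± 0.13 on TPM, -0.04 ± 0.076 on counts). So did *Myd88* on TPM (-0.03 ± 0.13) and *Tlr9* on counts (0.07 ± 0.30). On counts *Myd88* had a slope of -0.13 ± 0.11, which did not pass (edgeR, adjusted p = 0.9997). The markers and the members came from the same libraries and share their depth.

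**Figure D4:**
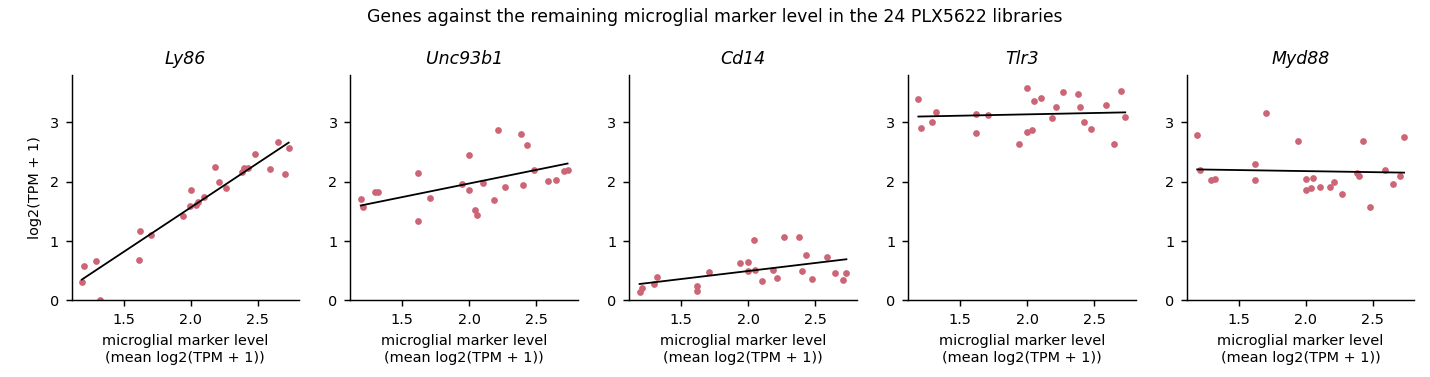
Level of 5 members as log2(TPM + 1) (y axis) against the mean log2(TPM + 1) of 8 microglial markers (x axis) in the 24 PLX5622 libraries; lines are the limma slopes, adjusted for Zeitgeber time. *Ly86* rises along the whole range of 1.19 to 2.73, with its library at 0 counts at the lower left, whereas *Tlr3* and *Myd88* stay level.

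The genes whose spread within groups was most like that of each member also differed between members. They were ranked by the Pearson correlation of the residuals from the 12 group means over 47 libraries, a description in libraries that share depth. The residuals are of log2(TPM + 1). For *Myd88* they include the 5 libraries in which its TPM was high for its counts, and its ranking without these libraries was not tested. *Ly86* was closest to the microglial genes *C1qa* (r = 0.91) and *Cx3cr1* (r = 0.90), and *Unc93b1* to *Csf1r* (r = 0.63) and *Lyl1* (r = 0.62). *Tlr3* was closest to *She* (r = 0.61) and *Farp1* (r = 0.61), *Myd88* to the calcium channel gene *Cacna1a* (r = 0.69) and *Drp2* (r = 0.62), and *Cd14* to *4930453N24Rik* (r = 0.51) and *Tesc* (r = 0.48). Of these, *C1qa*, *Cx3cr1*, *Csf1r* and *Lyl1* had lower means in PLX5622 mice (from 105 to 8.43 TPM for *C1qa*), while *She*, *Farp1*, *Cacna1a*, *Drp2*, *4930453N24Rik* and *Tesc* differed little (from 36.5 to 35.5 TPM for *Cacna1a*). Among the members themselves, *Ly86* and *Unc93b1* had the highest correlation (r = 0.57), and *Myd88* with *Ly86* the lowest (r = -0.26).

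The rest of the pathway was given by 73 other genes in 7 groups, of which 42 could be tested on TPM and 51 on counts. The list was made with earlier results of these data known, so its diet calls, on TPM and on counts, are not independent evidence. On TPM, 4 of 42 were lower in PLX5622 mice, 0 were higher, and 38 did not pass, against 2.58% lower and 0.871% higher among all genes. The median log2 difference over the 42 genes was 0.00075, and over all 14580 genes it was 0.031. The 4 were the transcription factors *Irf8* (3.73 to 0.813 TPM, log2 difference -1.38 ± 0.068, limma, adjusted p = 2.94e-22), which sets the microglial lineage, and *Irf5* (2.99 to 0.658 TPM, -1.29 ± 0.083, adjusted p = 7.72e-18), which acts downstream of MYD88, with much smaller differences for *Nfkb1* (7.16 to 6.06 TPM, -0.21 ± 0.058, adjusted p = 0.0300) and the kinase *Irak4* (1.20 to 0.907 TPM, -0.20 ± 0.054, adjusted p = 0.0248). *Irf8*, *Irf5* and *Irak4* averaged under 1 TPM in PLX5622 mice and so passed the TPM limit only through the control libraries. All 24 PLX5622 libraries were below every control library for *Irf8* and 23 of 24 for *Irf5*, but only 7 for *Nfkb1* and 5 for *Irak4*. *Nfkb1* no longer passed when any of 3 libraries was left out, mouse 2 of control ZT10 (adjusted p = 0.0501), mouse 1 of control ZT14 (0.0521) or mouse 3 of PLX5622 ZT6 (0.0521). *Nfkb1* (adjusted p = 0.166) and *Irak4* (adjusted p = 0.0944) also did not pass without the 5 libraries of high *Myd88* ratio.

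By group, 3 of 12 transcription factors and inhibitors and 1 of 17 kinases, ligases and inhibitors were lower on TPM, and 0 of 6 co-receptors and chaperones, 0 of 3 adaptors, 0 of 2 cytokine targets and 0 of 2 relatives that use MYD88. On counts, edgeR called 1 of 8, 1 of 4, 0 of 2 and 0 of 2 of these last 4 groups lower. *Ticam1*, the adaptor of TLR3, had 2.74 TPM in control and 2.76 TPM in PLX5622 mice. *Hsp90b1* (100.04 and 103.6 TPM), a chaperone of many Toll-like receptors, and *Irak1* (27.4 and 26.6 TPM) likewise did not pass. No other Toll-like receptor could be tested on TPM.

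On counts, 10 of 51 genes were lower and 1 was higher, against 5.26% and 2.05% of all genes, with a median log2 difference of -0.04 against 0.01 over all genes. *Irf8*, *Irf5*, *Nfkb1* and *Irak4* were among the 10, and the other 6, named after their values were seen, were *Tlr12*, *Tlr13*, *Cd180*, *Pik3ap1*, *Btk* and *Rel*. *Tlr13*, a receptor for bacterial ribosomal RNA, had a mean of 43.4 counts in control and 4.25 in PLX5622 libraries (log2 difference -3.49 ± 0.22, edgeR, adjusted p = 3.73e-19). *Tlr12* had 15.0 and 7.50 counts (-1.13 ± 0.22, adjusted p = 2.35e-04). *Cd180*, the binding partner of LY86, had 49.4 and 7.75 counts (-2.81 ± 0.20, adjusted p = 3.01e-17), and its log2 difference lay near that of *Ly86*. *Btk*, a kinase of haematopoietic cells, had 26.2 and 4.46 counts (-2.67 ± 0.24, adjusted p = 2.86e-13), and *Pik3ap1*, an adaptor that restrains Toll-like receptor signals, 66.2 and 21.3 (-1.80 ± 0.13, adjusted p = 9.45e-17). *Tlr12*, *Tlr13*, *Cd180* and *Btk* passed the count filter only through control libraries. The 1 higher gene was *Il1rap*, a co-receptor for interleukin-1, at 508 and 634 counts (0.17 ± 0.049, adjusted p = 0.0256), which on TPM did not pass (adjusted p = 0.0876).

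**Figure D5:**
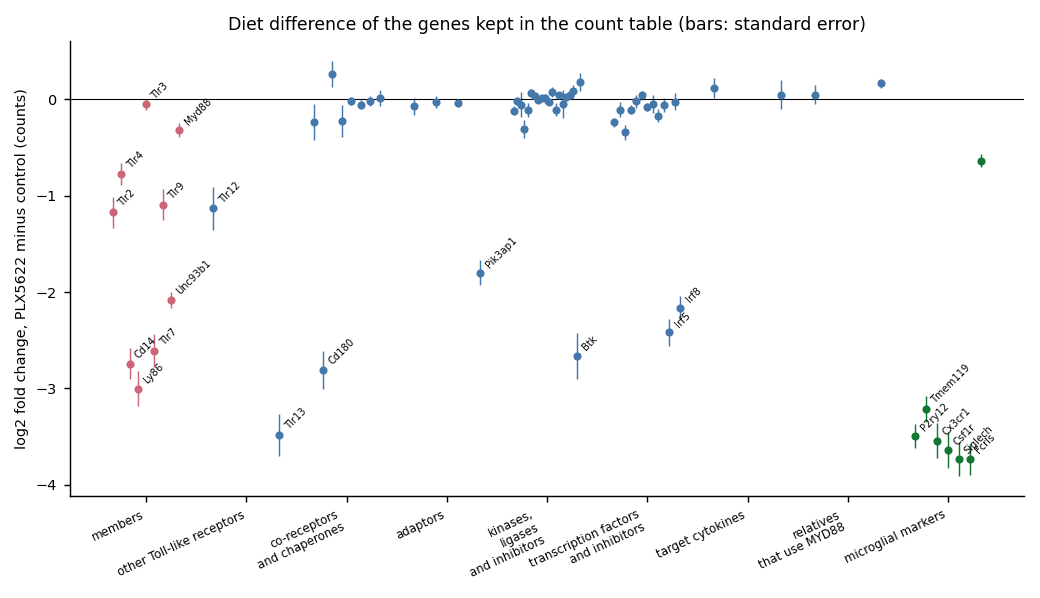
Log2 difference between diets in the count table (y axis, PLX5622 minus control). Shown are the 9 members kept there (red), 51 other genes of the pathway in 7 groups (blue) and 7 microglial markers (green). Bars are a standard error derived from the F statistic of edgeR. *Tlr3* lies at -0.05 and most pathway genes lie near 0, while *Ly86* and *Cd14* at -3.00 and -2.74 lie close to *Cd180* and *Btk*, and above 6 of the 7 microglial markers.

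Most cytokine genes that are induced through this pathway were too low to test. Of 15 listed, 2 passed the TPM limit and 2 the count filter. *Il10* and *Ifnb1* were listed at 0 in both diets, and *Tnf* averaged 0.0274 TPM in control and 0.00990 TPM in PLX5622 libraries. *Il1a* averaged 0.483 and 0.0782 TPM and *Il1b* 0.370 and 0.294 TPM. *Ptgs2*, which cortical neurons also express, averaged 2.13 and 2.34 TPM and did not pass (limma, adjusted p = 0.592).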

How the data were processed

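Cortical RNA of 47 mice was sequenced with paired reads of total RNA, 1 library per mouse, and groups were taken from the sample labels. The authors mapped reads to GRCm38.p6 with STAR and deposited TPM values from Salmon, run on the comprehensive Gencode genes. A second table, which its name calls FPKM, holds whole-number counts that the authors deposited without normalization; its own aligner, annotation and use of strand are not given in the sources used here, although the submitters' processing notes name STAR, featureCounts, edgeR and limma. Of 55745 genes, 53068 are in both tables. No 2 libraries of a group agreed within sampling noise (lowest chi-square per degree of freedom 4.30 over 69 pairs), so 47 mice were counted. Mice were housed 4 to a cage, and the cage is not in the labels.

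The 10 genes and all lists were chosen with earlier results of these data known. TPM was tested as log2(TPM + 1) in genes averaging 1 TPM or more (limma 3.58.1, R 4.3.3), with terms for diet and for a cosine and a sine of ZT with a period of 24 h. Rhythms were F tests of the time terms within each diet, and the interaction that of diet with both. Counts were fitted with edgeR 4.0.16 (quasi-likelihood, TMM, filterByExpr by diet). Since edgeR gives no standard error, that of a difference or slope on counts is its absolute value over the square root of F. CPM was the count over the library total. Benjamini-Hochberg adjustment ran over all genes tested, and an adjusted p under 0.05 was called. Slopes on the marker level used the 24 PLX5622 libraries with the time terms. Named genes were the members, other pathway genes past the threshold on TPM, and the 2 genes most correlated with each member tested on TPM. Single values of 1 microglial marker are not reported here. The scripts were tested on simulated data. Alternatives were: genes unfiltered or averaging 5 TPM or more, a pseudocount of 0.1, upper-quartile and median-of-ratios scaling, DESeq2 1.42.0, JTK_CYCLE (own code), 3 residual principal components, ZT as a factor, the replicate number as a block, and each library left out in turn. Leaving out 5 libraries was added after the data were seen. Floors cover counting error only. Python 3.11.15 with numpy 2.4.6, pandas 2.3.3 and matplotlib 3.10.9 was used.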

Additional observations from a re-analysis of the deposited data

Results flagged for a closer look

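In 7 of 110 groups of 4 mice, 1 library stood further from the other 3 than the 95% limit of Dixon's test allows, where chance gives about 5.5. *Tlr1* was at 1.93 TPM in mouse 2 of control ZT2 (21 counts), against 0.112 to 0.268 TPM (5 to 15 counts) in the others, and at 0.179 TPM in mouse 4 of PLX5622 ZT10, against 0 to 0.0283. *Tlr4* was at 0.820 TPM in mouse 2 of PLX5622 ZT6 (28 counts), against 0.275 to 0.339 TPM (18 to 26 counts). *Tlr7* was at 4.34 TPM in mouse 2 of control ZT22 (96 counts), against 0.820 to 1.05 TPM (44 to 59 counts). *Cd14* was at 1.10 TPM in mouse 2 of PLX5622 ZT22, against 0.403 to 0.431. *Unc93b1* was at 17.0 TPM in mouse 4 of control ZT6, against 11.9 to 12.7, and at 1.70 TPM in mouse 4 of PLX5622 ZT22, against 2.64 to 2.83.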

How the results depend on the processing

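Among the other pathway genes, 4 were lower on TPM, and 14 without a filter, 1 with a mean of at least 5 TPM, 10 with edgeR, 17 with DESeq2 and 2 without the 5 libraries of high *Myd88* ratio (3 to 4 when each library was left out). None was higher on TPM, while 1 was with upper-quartile scaling, median-of-ratios scaling, edgeR and DESeq2, and 3 with the residual principal components; leaving out each library gave 0 to 1, the 1 being *Il1rap* without mouse 3 of control ZT22 (adjusted p = 0.0396) or of control ZT6 (0.0482). On counts, 10 were lower and 16 without a filter (10 to 11 with each library left out). The call of 1 member (*Myd88*) for a rhythm in PLX5622 mice became 0 with edgeR, DESeq2 and JTK_CYCLE. It also became 0 with a mean of at least 5 TPM, which *Myd88* did not reach. The call stayed at 1 with any single library left out. Leaving out the 5 libraries takes away the fitted peak and cannot decide on this call. The interaction went from 0 members to 1 (*Myd88*, adjusted p = 0.0269) with the principal components, and the slope from 1 member to 2 with edgeR. The causes were not tested, beyond the filters, which change how many genes are tested. *Irak4* on counts did not pass without a filter (adjusted p = 0.0668). No result past the threshold reversed, but values near 0 changed sign. The log2 difference of *Tlr3* was 0.05 on TPM and -0.05 with edgeR and DESeq2, and its slope 0.05 on TPM, -0.04 with edgeR and -0.05 with the replicate block; the slope of *Myd88*, -0.03, was 0.06 without mouse 2 of PLX5622 ZT6 and 0.02 without mouse 3 of PLX5622 ZT10. Upper-quartile and median-of-ratios scaling shifted the median of all genes by -0.02 on the log2 scale. Same-numbered mice were not taken as pairs. Their correlations were higher on average than those of mice with different numbers (mean 0.05, over 0.1 in 76 of 253 pairs, against -0.02 and 95 of 759 pairs). What same-numbered mice share was not tested. The replicate block gave 4 pathway genes lower on TPM and 11 on counts. It left the members called at 1 for the PLX5622 rhythm and 1 for the slope. Counts of *Tlr1* (median 11 in control and 2 in PLX5622 libraries) limit what can be said of it.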
